A study of Mus musculus with 10 samples.

Results

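The genes described here encode the subunits of Polycomb repressive complex 2 (PRC2). They are the catalytic subunits EZH2 and EZH1, the other core subunits EED, SUZ12, RBBP4 and RBBP7, and the accessory subunits JARID2, AEBP2, MTF2 and PHF19. They were chosen by name as 10 rows among the 24043 gene rows of the table of the chemical experiment and the 24016 usable rows of the table of the genetic experiment, and all 10 were present in both. Symbols are in capitals as deposited.

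RNA was sequenced from 10 libraries of mouse prostate cancer organoids, which are 3-dimensional epithelial cultures, here derived from the dorsal-lateral prostate lobe of C57BL/6 mice aged 8 weeks. Every culture, controls included, carried cMYC overexpression, floxed Ezh2 alleles and PSA-CreERT2, and was grown with 10 nM R1881, a synthetic androgen. CreERT2 is a recombinase that Tamoxifen activates, and the PSA promoter is active in androgen-responsive luminal prostate cells. In the chemical experiment, 3 libraries from organoids given 1 µM DZNep were compared with 3 given the solvent DMSO. In the genetic experiment, 2 libraries from organoids given 1 µM Tamoxifen were compared with 2 given ethanol (EtOH). RNA was collected at 3 days. DZNep is an inhibitor of S-adenosylhomocysteine hydrolase, used in the series to inhibit EZH2. Whether replicates came from separate cultures or animals is not stated in the labels, and the p-values therefore rest on a spread between libraries that may be technical only.

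PRC2 places methyl groups on lysine 27 of histone H3, a mark of silenced genes. EZH2 or EZH1 carries out the methylation, and neither is active without EED, which binds the methylated histone, and SUZ12, the scaffold of the complex. RBBP4 and RBBP7 are closely related histone-binding proteins that also serve in other chromatin complexes. Accessory subunits define alternative forms of PRC2. MTF2, PHF19 and PHF1 are Polycomb-like proteins that bind DNA and methylated histone, while JARID2 and AEBP2 form the other branch. EZH2 is typical of dividing cells and EZH1 of resting ones. EZH2 is often raised in advanced prostate cancer.

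Values are given as RPKM, read counts scaled by transcript length and by library size. Genes averaging 1 RPKM or more were tested on log2(RPKM + 1) with limma, and a change was called where the p-value adjusted by Benjamini and Hochberg over all genes tested was under 0.05. All 10 PRC2 genes passed this filter in both tables. Fold changes on this scale understate the changes of weak genes, which touches PHF19 most. The libraries listed between 11037 and 11094 genes at 1 RPKM or more, and their RPKM summed to between 469455 and 512726. Read counts were not used here, so the counting error of a single value is unknown. Depth relative to DMSO 1, estimated from the ratios of weakly expressed genes, was lowest in DZNep 2, at 0.754. It was 0.947 to 1.148 in the other chemical libraries, and relative to EtOH 1 it was 1.07 to 1.097 in the genetic ones. Across all genes, libraries of a group correlated at 0.990 to 0.994. The level of a transcript in these bulk samples cannot separate fewer expressing cells from less RNA per cell.

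With DZNep, the transcripts of EZH2, SUZ12 and PHF19 fell and that of EZH1 rose, while the other 6 did not pass the test. In the libraries labelled Tamoxifen no PRC2 gene passed. With DZNep 1 PRC2 gene was therefore higher, against 16.6% of all genes tested, and 3 were lower, against 11.1% of all genes tested. The median log2 change was -0.03 over the PRC2 genes and 0.01 over all genes.

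The promoters of the 4 genes called with DZNep are shown first, because each of the genes that fell held a match to 1 of 4 related E2F words there. They are RefSeq sequences of GRCm38.p6, a different build from the mm9 of the deposited tables, and all 10 genes were matched to 14 promoter windows of 300 bases around a transcription start. Each sequence below is printed 5′ to 3′ on the strand of the gene and ends near its start site: EZH2 at chr6:47595020-47595280 on the minus strand, SUZ12 at chr11:79992856-79993105 on the plus strand, PHF19 at chr2:34913977-34914226 on the minus strand, and EZH1 at chr11:101226464-101226713 on the minus strand. Capitals mark a match to an E2F word.
EZH2: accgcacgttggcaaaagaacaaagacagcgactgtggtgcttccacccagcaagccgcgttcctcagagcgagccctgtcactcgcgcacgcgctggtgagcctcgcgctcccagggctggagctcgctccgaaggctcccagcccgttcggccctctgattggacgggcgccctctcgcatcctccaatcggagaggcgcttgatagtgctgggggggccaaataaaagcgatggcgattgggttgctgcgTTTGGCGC
SUZ12: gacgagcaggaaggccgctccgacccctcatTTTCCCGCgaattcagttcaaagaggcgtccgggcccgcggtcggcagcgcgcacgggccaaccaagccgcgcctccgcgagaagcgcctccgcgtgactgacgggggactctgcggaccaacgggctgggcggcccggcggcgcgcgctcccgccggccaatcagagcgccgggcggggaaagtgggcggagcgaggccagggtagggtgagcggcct
PHF19: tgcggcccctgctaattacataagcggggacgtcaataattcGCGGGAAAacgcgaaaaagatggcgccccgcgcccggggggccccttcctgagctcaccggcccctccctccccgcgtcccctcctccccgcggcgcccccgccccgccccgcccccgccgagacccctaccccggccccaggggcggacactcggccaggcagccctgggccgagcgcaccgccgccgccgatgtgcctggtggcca
EZH1: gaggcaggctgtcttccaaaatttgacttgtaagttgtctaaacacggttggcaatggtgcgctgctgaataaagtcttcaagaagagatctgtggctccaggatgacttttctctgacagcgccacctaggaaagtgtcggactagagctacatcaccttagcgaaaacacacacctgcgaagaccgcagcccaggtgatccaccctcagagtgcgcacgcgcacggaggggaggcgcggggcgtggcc
E2F factors are regulators of genes of the cell cycle and DNA replication. The words searched, on both strands, were TTTCCCGC, TTTCGCGC, TTTGCCGC and TTTGGCGC. One was found in 3 of the 14 windows of the PRC2 genes, those of EZH2, SUZ12 and PHF19, and in 744 of all 32851 promoter windows (2.26%), which include genes not expressed here. It starts at base 4 after the transcription start in EZH2, at -219 in SUZ12 and at -208 in PHF19, where it lies on the opposite strand as GCGGGAAA. None of these matches overlaps another motif searched. The match is a description of letters and shows no binding.

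The promoter words were chosen with earlier results of these data known, so their place in the PRC2 genes tests nothing. The other words searched were found as follows. CCAAT was in 8 PRC2 genes, all but EZH1 and PHF19 (9 of the 14 windows), and in 37.4% of all windows. GGGCGG, the core of a GC box, was in 7 of them, all but EZH2, EZH1 and EED (9 windows), and in 35.7% of all windows. TTTGAA, a word of cell-cycle promoters, was in AEBP2, EED, MTF2 and SUZ12 (4 windows) and in 17.9% of windows. CACGTG, a word that MYC can bind, was in RBBP4 alone (1 window) and in 7.15% of windows. A promoter window was matched for 8858 of the 11143 genes tested with DZNep (79.5%), too few for a check over all genes to be valid, so the following is given only for the matched genes. An E2F word was in 450 of them (5.08%), and of these 52 were lower with DZNep (11.6%), beside 976 of all 8858 (11.02%).

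EZH2 is the intended target of both treatments. It stood at 30.4, 29.8 and 27.1 RPKM in the DMSO libraries and at 22.5, 24.2 and 24.7 RPKM in the DZNep libraries. Every DZNep library was below every DMSO library. The mean went from 29.1 ± 1.78 to 23.8 ± 1.19 RPKM (SD, n = 3 each), a fall of 18.1%. The log2 change was -0.28 (SE 0.0612, 95% interval -0.42 to -0.14, adjusted p = 0.0142 by limma). The exact permutation test of this gene alone, two-sided, gave p = 0.1, which is the lowest value possible with 3 libraries a group. Without DMSO 2, EZH2 no longer passed limma (adjusted p = 0.0652).

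EZH1, the alternative catalytic subunit, moved the other way. It was listed at 13.2, 14.99 and 14.9 RPKM with DMSO and at 19.3, 18.0 and 16.9 RPKM with DZNep, so the groups did not overlap. The mean rose from 14.4 ± 1.03 to 18.0 ± 1.22 RPKM (SD, n = 3), or by 25.8%, with a log2 change of 0.31 (SE 0.0689, 95% interval 0.15 to 0.47, adjusted p = 0.0142 by limma). Without DZNep 2 it no longer passed (adjusted p = 0.0514).

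The catalytic pair was also compared as a ratio within each library, which does not depend on the scaling of that library. This ratio joins the fall of EZH2 and the rise of EZH1 and is no separate evidence. EZH2 stood at 2.31, 1.99 and 1.82 times EZH1 with DMSO and at 1.16, 1.35 and 1.47 times with DZNep. The ratio was lower in 3 of 3 DZNep libraries than in any DMSO library, and its mean went from 2.04 ± 0.2501 to 1.33 ± 0.153 (SD, n = 3 each). EZH1 made up 30.2% to 35.5% of the summed EZH1 and EZH2 RPKM with DMSO and 40.5% to 46.2% with DZNep. The difference of the log2 ratio was -0.62, with an exact two-sided permutation p of 0.1, the smallest possible, and 0.6 after adjustment over the 6 ratio tests run, which does not pass.

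**Figure D1:**
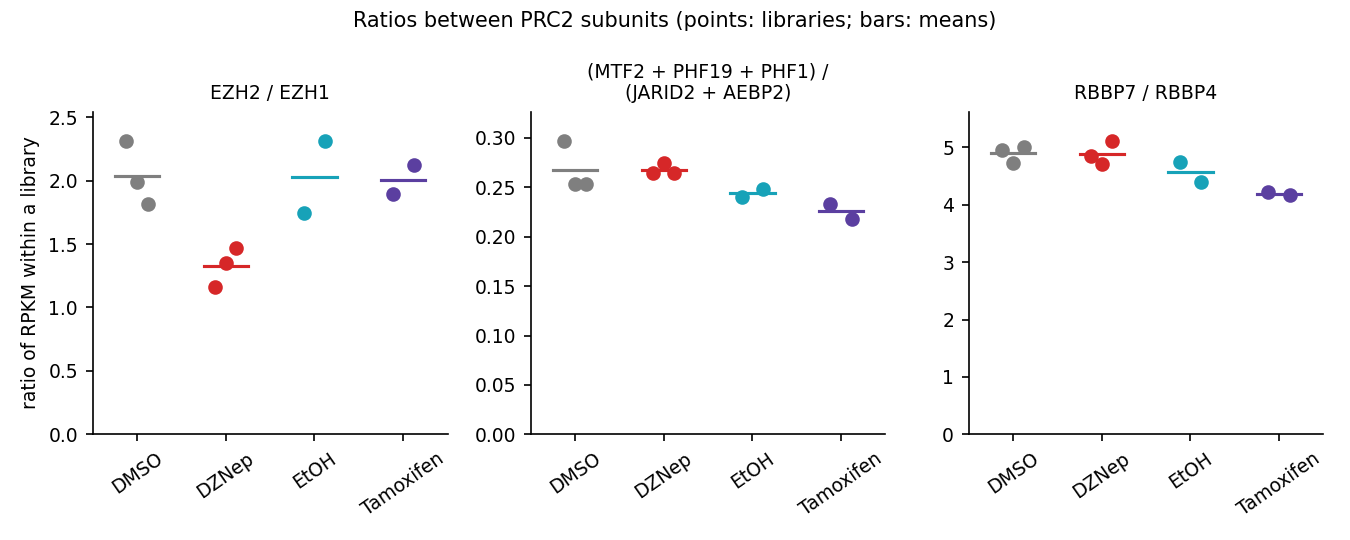
Ratios of RPKM within each library for the catalytic pair (left), the Polycomb-like genes to JARID2 and AEBP2 (middle) and RBBP7 to RBBP4 (right). Points are libraries, horizontal bars are group means, and the axes start at 0. The 3 DZNep libraries lie at 1.16 to 1.47 in the left panel, under all other libraries.

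Among the other core subunits, SUZ12 fell with DZNep. Its values were 22.3, 22.2 and 23.3 RPKM with DMSO and 18.8, 19.5 and 19.04 RPKM with DZNep. The groups were well apart and each was narrow, with means of 22.6 ± 0.612 and 19.1 ± 0.345 RPKM (SD, n = 3), a fall of 15.5%. The log2 change was -0.23 (95% interval -0.34 to -0.13, adjusted p = 0.00851 by limma). SUZ12 passed under each alternative run for this comparison, including without each library in turn.

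EED, the reader of the methylated histone, was at 22.8, 21.7 and 20.5 RPKM with DMSO and 22.1, 23.2 and 24.1 RPKM with DZNep. The groups overlapped, and the log2 difference of 0.09 (95% interval -0.04 to 0.22, adjusted p = 0.259 by limma) did not pass. RBBP4 was at 22.7, 22.9 and 20.3 RPKM with DMSO and at 21.4, 22.8 and 22.2 RPKM with DZNep. RBBP7 was at 112.5, 108.7 and 101.9 RPKM with DMSO and at 103.9, 107.4 and 113.3 RPKM with DZNep. Both overlapped between groups, with log2 differences of 0.01 each and 95% intervals of -0.13 to 0.15 for RBBP4 and -0.13 to 0.14 for RBBP7. The ratio of RBBP7 to RBBP4 was 4.90 ± 0.144 with DMSO and 4.89 ± 0.207 with DZNep (SD, n = 3, exact permutation p = 1). These paralogs are similar in sequence, and no source used here gives the treatment of reads aligned to several places. EZH1 and EZH2 are paralogs too.

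Of the JARID2 and AEBP2 branch, neither gene passed with DZNep. JARID2, which helps recruit PRC2 to chromatin, was at 4.96, 4.91 and 5.24 RPKM with DMSO and 4.74, 5.05 and 4.54 RPKM with DZNep (log2 difference -0.06, 95% interval -0.19 to 0.06). AEBP2, a zinc finger protein that stimulates the enzyme, was at 59.8, 69.1 and 72.6 RPKM with DMSO and 68.9, 65.0 and 66.5 RPKM with DZNep. Its DMSO libraries spanned a wider range than its DZNep libraries. The log2 difference was -0.00 (95% interval -0.17 to 0.17, adjusted p = 0.979 by limma).

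The Polycomb-like genes differed from each other. PHF19 was the weakest PRC2 transcript and had the largest proportional fall of the 3 that fell, from 1.94, 1.73 and 1.64 RPKM with DMSO to 1.28, 1.17 and 1.29 RPKM with DZNep. The groups did not overlap, and the mean went from 1.77 ± 0.158 to 1.25 ± 0.0661 RPKM (SD, n = 3), a fall of 29.5%. On the log2(RPKM + 1) scale the change was -0.30 (SE 0.0717, adjusted p = 0.0189 by limma), and with a pseudocount of 0.1 it was -0.47. PHF19 no longer passed without DMSO 2 (adjusted p = 0.0593) or without DZNep 2 (0.0625).

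MTF2 was at 8.34, 8.31 and 8.39 RPKM with DMSO and at 6.97, 7.89 and 8.33 RPKM with DZNep. DZNep 3 lay within the narrow DMSO range, and the log2 difference of -0.10 (95% interval -0.25 to 0.05, adjusted p = 0.267 by limma) did not pass. PHF1, the remaining Polycomb-like gene, had 9.10 ± 0.522 RPKM with DMSO and 10.2 ± 1.01 RPKM with DZNep (SD, n = 3, log2 difference 0.14, adjusted p = 0.182 by limma). The summed RPKM of MTF2, PHF19 and PHF1 was 0.268 ± 0.0253 times that of JARID2 and AEBP2 with DMSO and 0.268 ± 0.00580 times with DZNep (SD, n = 3, exact permutation p = 1). With PHF1 left out of the sum, the log2 difference of this ratio was -0.17.

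The levels of the subunits differed far more from each other than between treatments. In the DMSO libraries the order per length was RBBP7 (mean 107.7 RPKM), AEBP2 (67.1), EZH2 (29.1), SUZ12 (22.6), RBBP4 (22.0), EED (21.7), EZH1 (14.4), MTF2 (8.35), JARID2 (5.04) and PHF19 (1.77). SUZ12, RBBP4 and EED overlapped in their ranges, and every other pair of neighbours was apart. RBBP7 was above 94.4% of the genes tested and PHF19 above only 6.42%. The RPKM of all 10 summed to 295.8 to 304.4 with DMSO and 289.8 to 300.9 with DZNep. With DZNep, the range of EZH2, which lay above that of EED with DMSO, overlapped it, and the range of SUZ12 overlapped that of EZH1.

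**Figure D2:**
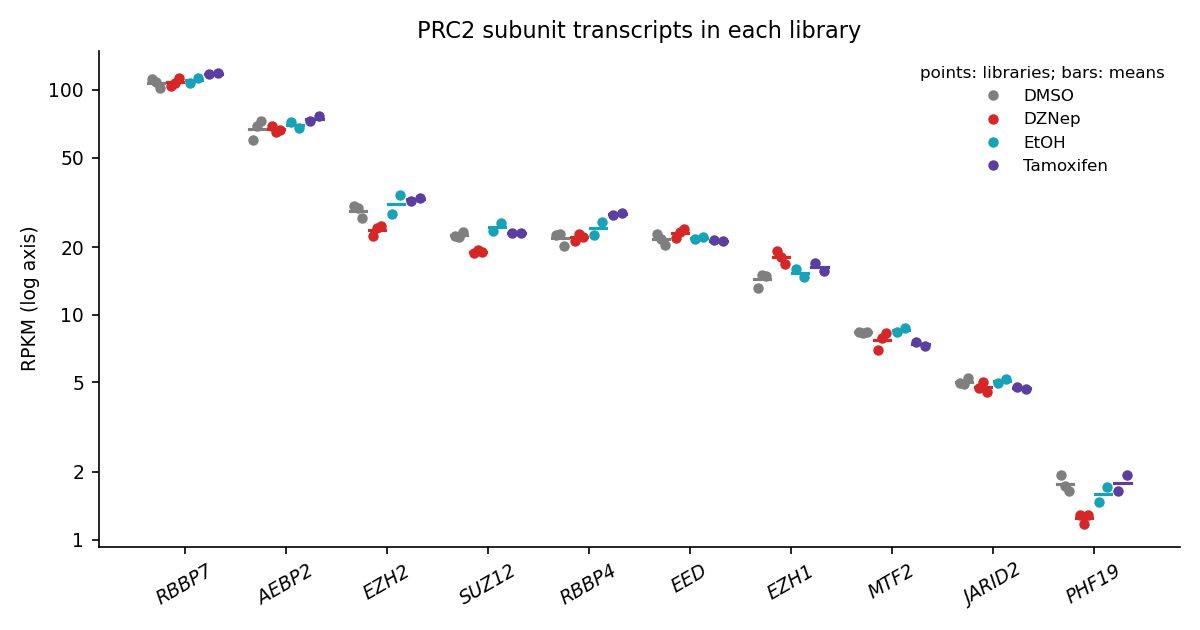
RPKM of the 10 PRC2 genes in every library on a log axis, ordered by the DMSO mean. Points are libraries and short bars are group means. RBBP7 lies at 101.9 RPKM or more in every library, PHF19 at 1.94 or less, and the DZNep libraries stand apart from DMSO for EZH2, SUZ12, EZH1 and PHF19.

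In the genetic experiment, the floxed gene itself, EZH2, showed no lower level in libraries labelled Tamoxifen. It was at 27.9 and 34.0 RPKM with EtOH and at 32.0 and 33.2 RPKM with Tamoxifen, which lay inside the EtOH range. The means were 31.0 ± 4.25 and 32.6 ± 0.822 RPKM (SD, n = 2 each), and the log2 difference of 0.08 (95% interval -0.17 to 0.33, adjusted p = 0.635 by limma) did not pass. The exact permutation p for EZH2 alone was 1, where 2 against 2 libraries cannot go below 0.333. The difference was -0.06 without EtOH 1 and 0.21 without EtOH 2. The value covers the whole gene, including exons that recombination would leave in place, and is no measure of how many alleles were recombined.

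No PRC2 gene passed in this experiment, beside 0.692% of all genes tested that were higher and 1.38% that were lower. At an unadjusted limma p under 0.05 there were 2 PRC2 genes, of 2831 of the 11123 genes tested. These were MTF2, at 8.41 and 8.71 RPKM with EtOH and 7.59 and 7.27 RPKM with Tamoxifen (log2 difference -0.18, 95% interval -0.32 to -0.04, adjusted p = 0.140), and RBBP4, at 22.6 and 25.8 RPKM with EtOH and 27.8 and 28.5 RPKM with Tamoxifen (0.21, 95% interval 0.02 to 0.40, adjusted p = 0.171). In each the treated libraries lay outside the range of the controls.

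Separation alone was common in this experiment. Both Tamoxifen libraries lay above both EtOH libraries for 36.6% of all genes tested and below them for 23.2%. Of the PRC2 genes, RBBP4, RBBP7 and AEBP2 lay above, and EED, SUZ12, JARID2 and MTF2 lay below. With DZNep the shares of all genes were 26.1% above and 19.4% below, with EZH1 above and EZH2, SUZ12 and PHF19 below.

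The other genes had small differences in the genetic experiment. EZH1 was at 16.0 and 14.7 RPKM with EtOH and 16.9 and 15.6 RPKM with Tamoxifen. PHF19 was at 1.47 and 1.72 RPKM with EtOH and 1.64 and 1.94 RPKM with Tamoxifen. In both the groups overlapped. SUZ12 was at 23.5 and 25.5 RPKM with EtOH and 23.0 and 23.1 RPKM with Tamoxifen, a log2 difference of -0.08 (95% interval -0.24 to 0.07). EED went from 21.7 and 22.1 to 21.4 and 21.3 RPKM, and JARID2 from 4.95 and 5.16 to 4.76 and 4.68 RPKM. RBBP7 was at 107.5 and 113.5 RPKM with EtOH and 117.7 and 118.6 RPKM with Tamoxifen, and AEBP2 at 72.0 and 68.0, then 72.7 and 76.3 RPKM. The log2 differences of these 4 lay between -0.08 and 0.10.

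Ratios in the genetic experiment moved little. EZH2 was 1.74 and 2.31 times EZH1 with EtOH and 1.89 and 2.12 times with Tamoxifen (exact permutation p = 1), so the groups overlapped. The Polycomb-like sum was 0.244 ± 0.00577 times JARID2 and AEBP2 with EtOH and 0.226 ± 0.0108 times with Tamoxifen (SD, n = 2). RBBP7 was 4.57 ± 0.2504 and 4.196 ± 0.0451 times RBBP4. For these last 2 ratios the Tamoxifen libraries lay below the EtOH libraries, with an exact permutation p of 0.333, the smallest possible, and 0.667 adjusted over the 6 tests.

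**Figure D3:**
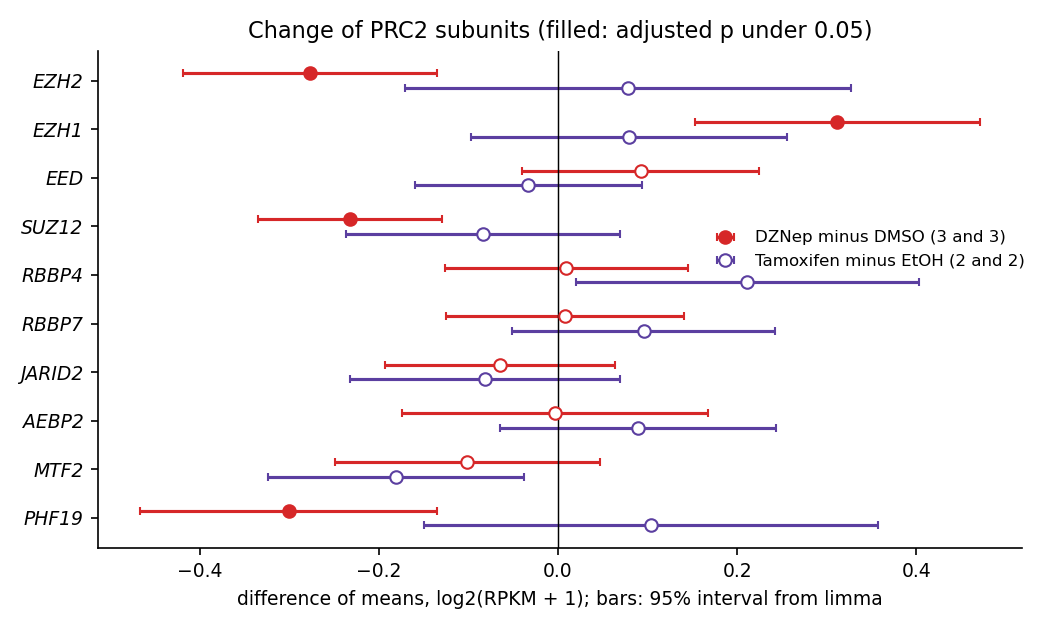
Difference of group means in log2(RPKM + 1) for each PRC2 gene, DZNep minus DMSO in red and Tamoxifen minus EtOH in violet. Bars are 95% intervals from limma, and filled points have an adjusted p under 0.05. The filled points are EZH2 (-0.28), SUZ12 (-0.23), PHF19 (-0.30) and EZH1 (0.31), all with DZNep.

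Whether a gene responded differently to the treatments was tested in 1 limma fit of the 4 group means. PHF19 was called, with a change 0.40 lower on the log2 scale with DZNep than with Tamoxifen (difference -0.40, SE 0.113, 95% interval -0.66 to -0.15, adjusted p = 0.0324). It was the only one of the 10, beside 9.2% of all genes tested called in that direction and 10.7% in the other. The call was lost without DMSO 1 (adjusted p = 0.0525), DMSO 2 (0.0629), DZNep 2 (0.0676), EtOH 1 (0.113) or Tamoxifen 2 (0.144).

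EZH2 had a difference of -0.36 (95% interval -0.61 to -0.10, adjusted p = 0.0566 by limma) and passed without DMSO 3 (adjusted p = 0.0423), without EtOH 2 (0.0143), under quantile normalization (0.0321) and under trimmed mean scaling (0.0476). EZH1 had a difference of 0.23 (95% interval -0.01 to 0.47, adjusted p = 0.150) and SUZ12 one of -0.15 (-0.31 to 0.01, adjusted p = 0.165). For these genes a different response to the treatments is therefore not shown. The other 6 had adjusted p-values from 0.170 for RBBP4 to 0.903 for JARID2.

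Genes that work beside PRC2 were counted in the same way. The shares of all genes tested were 16.6% higher and 11.1% lower with DZNep, and 0.692% higher and 1.38% lower with Tamoxifen. Counts of each list below are to be read beside these shares. Of 4 tested genes of other PRC2-associated proteins, 0 passed in either experiment by limma: PHF1 and EPOP, listed under E130012A19RIK, had log2 differences of 0.14 and -0.21 with DZNep, and LCOR and LCORL of 0.00 and -0.08. With DZNep 0 had an unadjusted p under 0.05, and with Tamoxifen 1 did. LCORL had an unadjusted limma p of 0.00728 with Tamoxifen (log2 difference -0.36, adjusted p = 0.0939). SKIDA1 was under the filter at 0.494 ± 0.0406 RPKM with DMSO (SD, n = 3).

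PRC1, the partner complex that binds the mark of PRC2 and ubiquitinates histone H2A, had 28 genes tested. With DZNep 3 rose and 7 fell, beside 16.6% and 11.1% of all genes tested, with a median log2 change of -0.08. RING1, a catalytic subunit, rose from 9.85 ± 0.216 to 13.0 ± 1.03 RPKM (SD, n = 3, log2 change 0.36, adjusted p = 0.00492 by limma). CBX6, which holds a chromodomain, and PCGF3, a partner of the RING subunits, fell by 0.35 and 0.39 on the log2 scale (adjusted p = 0.00635 and 0.00975). With Tamoxifen 0 rose and 1 fell, the other catalytic subunit RNF2, from 19.01 ± 0.879 to 14.2 ± 0.0780 RPKM (SD, n = 2, -0.39, adjusted p = 0.0439).

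Enzymes that act against PRC1 and PRC2 were listed with their partner proteins, as 10 tested genes. They cover the demethylases of histone H3 lysine 27 with the related UTY, and the H2A deubiquitinase with its partners. With DZNep 0 rose and 2 fell, beside 16.6% and 11.1% of all genes tested. These were KDM6B, a demethylase, from 11.7 ± 1.11 to 9.13 ± 1.09 RPKM (SD, n = 3, log2 change -0.33, adjusted p = 0.0363 by limma), and FOXK2, a DNA-binding partner of the deubiquitinase (-0.20, adjusted p = 0.0352). With Tamoxifen 0 rose and 1 fell, the KDM6A relative UTY, by 0.40 on the log2 scale (adjusted p = 0.0470). KDM6A itself had differences of -0.04 and -0.09.

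RBBP4 and RBBP7 also serve in histone deacetylase and remodelling complexes, of which 25 other genes were tested. With DZNep 1 rose and 3 fell, beside 16.6% and 11.1% of all genes tested. SAP18 of the SIN3 complex rose by 0.34 on the log2 scale (adjusted p = 0.00373 by limma). Among the 3 that fell were MTA3 of the NuRD complex (-0.32, adjusted p = 0.00490) and SUDS3 of the SIN3 complex (-0.24, adjusted p = 0.0102). With Tamoxifen 0 passed by limma, and 3 had an unadjusted p under 0.05. The most abundant in that experiment, MTA2 and MBD2, had differences of 0.03 and -0.10.

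E2F factors, the RB family and replication genes were a group of 27 tested genes. With DZNep 2 rose and 9 fell, beside 16.6% and 11.1% of all genes tested, and the median log2 change was -0.13. E2F8, a repressor among the E2F factors, fell from 13.0 ± 0.515 to 9.27 ± 0.286 RPKM (SD, n = 3, log2 change -0.44, adjusted p = 8.46e-04 by limma). CDT1, which licenses replication origins, and RRM2, which makes deoxyribonucleotides, changed by -0.41 and -0.42 (adjusted p = 0.00166 and 0.00256). The 2 that rose were RBL2 (0.24, adjusted p = 0.00828 by limma) and MKI67 (0.18, adjusted p = 0.0334). Among the 16 that did not pass, PCNA was at 0.00 and MCM2 to MCM7 lay between -0.09 and 0.12. With Tamoxifen 0 of 27 passed by limma and 5 had an unadjusted p under 0.05, with a median of 0.09, and the most abundant, PCNA and RRM2, had differences of 0.11 and 0.07. Over all genes tested the median was 0.01 with DZNep and 0.04 with Tamoxifen. The part of this group in the fall of EZH2, SUZ12 and PHF19 was not tested.

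**Figure D4:**
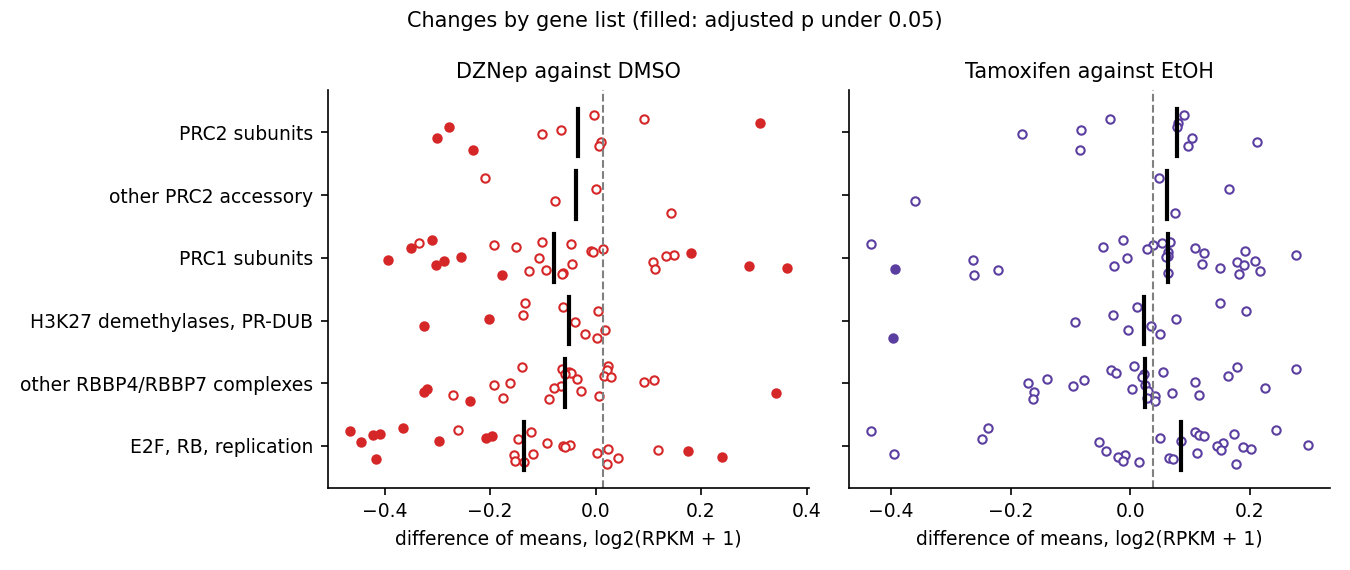
Log2 changes of the tested genes of each list with DZNep (left) and Tamoxifen (right). Each point is a gene, filled where its adjusted p is under 0.05. Black bars are list medians and the dashed line is the median of all genes tested. The E2F, RB and replication genes have the lowest median with DZNep (-0.13) of the lists drawn.

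By library, the mean log2(RPKM + 1) over the 27 genes was 4.57, 4.53 and 4.41 with DMSO and 4.31, 4.36 and 4.40 with DZNep. It was 4.49 and 4.55 with EtOH and 4.48 and 4.63 with Tamoxifen. DMSO 3, the DMSO library of lowest EZH2, was also the lowest of its group in this mean and differed little from DZNep 3. EZH2 on the same scale was 4.81 in DMSO 3 and 4.69 in DZNep 3.

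**Figure D5:**
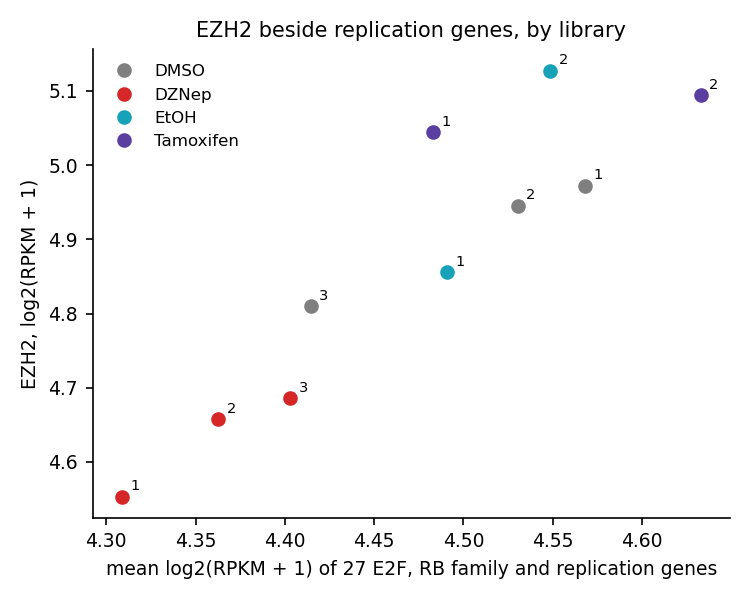
EZH2 in log2(RPKM + 1) against the mean of 27 E2F, RB family and replication genes on the same scale, with 1 point per library and its replicate number. The DZNep libraries lie at the lower left, from 4.31 to 4.40 on the horizontal axis, and DMSO 3 lies at 4.41.

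Genes whose small variation within groups lay closest to that of EZH2 were looked up among all genes tested in both experiments. The 3 named below were picked for their high correlation, so they set no standard for the PRC2 genes. The mean of each group was removed, and the Pearson correlation with EZH2 over the 10 libraries was taken for 10994 genes. The 3 highest were PRMT7, a protein arginine methyltransferase (0.995), and ACAD9 (0.993) and NDUFC1 (0.991), which encode mitochondrial proteins. The points share libraries and their scaling, and the EtOH pair has the widest spread. Without it the values were 0.991, 0.984 and 0.979. PRMT7 differed from EZH2 between groups, being at 9.60 to 10.9 RPKM with DMSO and 12.6 to 13.7 RPKM with DZNep.

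Among the PRC2 genes, RBBP4 (0.94) and RBBP7 (0.85) had the highest correlations with EZH2 within groups over the 10 libraries, followed by EED (0.68), PHF19 (0.67), MTF2 (0.46) and SUZ12 (0.44). JARID2 was near 0 (-0.05), and AEBP2 (-0.61) and EZH1 (-0.74) were opposite. Ranked from the highest correlation among the 10994 genes, RBBP4 was at 130, RBBP7 at 615 and EZH1 at 10533. Over the 8 libraries without the EtOH pair the order differed, with RBBP7 at 0.94, EED at 0.93 and RBBP4 at 0.90. MTF2 was then at 0.51, PHF19 at 0.52, SUZ12 at -0.39, JARID2 at -0.48, AEBP2 at -0.66 and EZH1 at -0.76. These values describe these libraries and carry no test.

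Markers of cell types moved with the treatments. Of 7 tested basal epithelial markers, 5 rose and 1 fell with DZNep, beside 16.6% and 11.1% of all genes tested. By p-value the first was KRT14, with a log2 change of 0.85 (adjusted p = 7.18e-05 by limma), and KRT17 had the larger change, 1.04. ITGA6 was the 1 that fell (-0.29, adjusted p = 0.00943 by limma), and TRP63 did not pass (-0.04, adjusted p = 0.655). With Tamoxifen 1 rose and 1 fell, beside 0.692% and 1.38% of all genes tested. These were NGFR (0.56, adjusted p = 0.0330 by limma) and KRT14 (-0.49, adjusted p = 0.0424). The summed RPKM of the basal markers was 4967 to 5263 with DMSO, 6734 to 7007 with DZNep, 5145 to 5540 with EtOH and 4076 to 4188 with Tamoxifen. The summed RPKM of the luminal markers was 4074 to 4246, 4084 to 4313, 4067 to 4379 and 3562 to 3765 in the same order, and PBSN, a defining luminal gene, was at 0 in every group. Both kinds of marker were abundant. Their part in the changes of the PRC2 genes was not tested.

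Markers of other cells were weak. The fibroblast and smooth muscle sum over 10 markers was 3.48 to 4.67 RPKM with DMSO and 8.69 to 9.82 with DZNep. COL1A2 and COL3A1 were at 0 in both groups. The 2 tested, DCN and ACTA2, rose, beside 16.6% higher and 11.1% lower of all genes tested. ACTA2 was under 1 RPKM with DMSO and passed the filter only through the DZNep libraries, so its rise tests nothing. This fibroblast and smooth muscle sum was 3.77 to 4.24 with EtOH and 2.92 to 4.51 with Tamoxifen. The immune sum over 7 markers was 13.5 to 16.9 with DMSO and 16.2 to 18.0 with DZNep, nearly all of it CD68, with PTPRC at 0 with DMSO. It was 11.7 to 14.3 with EtOH and 12.3 to 14.4 with Tamoxifen. The neuroendocrine sum over 6 markers was 6.43 to 7.54 and 4.45 to 5.91 in the chemical experiment and 6.72 to 7.33 and 7.65 to 7.96 in the genetic one, mostly ENO2, with CHGA at 0 in every group. The 6 endothelial markers summed to under 1 RPKM in every library.

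In the reference annotation RBBP4 overlaps Sync, RBBP7 overlaps Txlng, MTF2 overlaps Tmed5 and PHF1 overlaps Cuta, each a coding gene on the opposite strand. Noncoding genes lie opposite EZH2, SUZ12, EED, RBBP4, JARID2, PHF19 and PHF1. The kit preserves strand, but no source used here says whether counting used it, so reads of these opposite-strand partners may be included. On the same strand, EED overlaps Gm45120 and PHF1 overlaps Mir6968, which counting by strand would not separate.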

How the data were processed

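Illumina TruSeq stranded mRNA libraries were made from 500 ng of TRIzol-extracted RNA, per the labels' protocols. The submitters' processing notes name bcl2fastq 2.18, STAR, Cufflinks and build mm9, without versions of STAR or Cufflinks. The authors deposited log2 RPKM values in 1 table per experiment, with a floor of 0, read here as log2(RPKM + 1). No source used here says whether the tables were normalized together, so levels were never tested across tables. From the genetic table, 2 blank rows and 27 rows with symbols turned into dates were left out.

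Each table was tested alone with limma 3.58.1 (R 4.3.3), two-sided, with a trend of variance on the mean and Benjamini-Hochberg adjustment. Genes averaging 1 RPKM or more entered, 11143 for DZNep, 11123 for Tamoxifen and 10994 for the difference between treatments. That difference assumes that differences within tables are comparable. Ratios and EZH2 alone had exact permutation tests in Python 3.11.15 with scipy 1.17.1. The procedure was tested on simulated data. The main tests did not pair libraries by replicate number, and whether these numbers mark pairs is not known.

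The genes, lists, promoter words and tests were chosen with earlier results of these data known. Named were all 10 PRC2 genes, PHF1, lists of up to 6 measured genes, and of each other list up to 3 genes of smallest p among those passing, or the 2 most abundant where none passed, plus the 3 genes most like EZH2. KDM6A, RBL2, MKI67, the MCM genes, PCNA with DZNep, ITGA6, TRP63 and the marker genes at 0 were named after their values were seen. The calls of luminal markers are not reported here. The settings varied were the pseudocount (0.1), the filter (none, or 5 RPKM), scaling (quantile, or trimmed mean), a replicate block, 1 joint fit, and each library left out.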

Additional observations from a re-analysis of the deposited data

Results flagged for a closer look

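PHF19 differed between the treatments: its log2 change with DZNep less that with Tamoxifen was -0.40 (SE 0.113, limma adjusted p = 0.0324), made up of -0.30 with DZNep, where 3 of 3 treated libraries lay below the controls, and 0.10 with Tamoxifen, where the groups overlapped. PHF19 was also the weakest of the 10 PRC2 transcripts, at 1.17 to 1.94 RPKM over the 10 libraries, and 1 library could end this call.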

How the results depend on the processing

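With DZNep, 3088 genes were called, 1757 without a filter, 1610 with a replicate block, and 1482 (without DMSO 2) to 3308 (without DMSO 1) when libraries were left out. Calls were 1850 higher and 1238 lower, against 1636 and 1637 under quantile normalization and 1626 and 1506 under trimmed mean scaling. The PRC2 genes called higher were 1, but 0 without a filter and 0 with the replicate block, where EZH1 was lost, and 0 to 1 without single libraries. Those called lower were 3, but 1 with the replicate block, which kept SUZ12, and 1 to 3 without single libraries. EZH2 was lost without a filter (adjusted p = 0.0699). Whether equal replicate numbers mark paired libraries is not known. Deviations of same-numbered libraries correlated at 0.059, 0.059 and -0.068 in the chemical experiment, where not every library correlated best with its own number. In the genetic experiment they correlated at 0.040, and those of unlike number at -0.040. With 2 libraries a group these are 1 value with its sign changed, which cannot decide pairing.

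Changes near 0 turned sign. With DZNep, RBBP4 was at -0.0198 under quantile normalization, -0.0118 under trimmed mean scaling and -0.0441 to 0.0395 without single libraries. RBBP7 was at -0.0359, -0.0147 and -0.0317 to 0.0392 in the same order, and AEBP2 at -0.0832 to 0.0548 without single libraries. The log2 ratio of Polycomb-like genes to JARID2 and AEBP2 was -0.167 with PHF1 left out and -0.0348 to 0.0806 without single libraries, and that of RBBP7 to RBBP4 was -0.0350 to 0.0253.

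With Tamoxifen, 230 genes were called, 97 without a filter, 396 under trimmed mean scaling, 878 with the replicate block, 1053 in a joint fit, and 31 (without Tamoxifen 2) to 701 (without EtOH 2) when libraries were left out, where a lone library is assumed to vary like the others. No setting called a PRC2 gene. EZH2 was at -0.0578 to 0.214 without single libraries and its log2 ratio to EZH1 at -0.207 to 0.200.

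For the difference between treatments, 2190 genes were called, 1402 without a filter, 1226 with the replicate block and 907 (without Tamoxifen 2) to 2338 (without DMSO 1) without single libraries. The PRC2 genes called lower were 1, then 0 without a filter, 0 with a filter of 5 RPKM, which removes PHF19, 0 with the replicate block, 2 under quantile normalization, 2 under trimmed mean scaling, and 0 to 2 without single libraries. The difference of JARID2 was -0.0170 to 0.0460 without single libraries. The cause of these shifts was not tested.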
